A study of Mus musculus with 6 samples.

Results

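The expression of 10 genes of blood vessels, chosen by name, was compared between deprived and non-deprived visual cortex. These were Cldn5, Pecam1, Kdr, Flt1, Tek, Cdh5, Tie1 and Slc2a1, which mark the endothelium, and Acta2 and Tagln, which mark smooth muscle of the vessel wall. All 10 were among the 8251 genes that the platform annotation names, with 12 probe sets in all. The tissue was visual cortex of wild-type C57Bl6 mice at P104 (postnatal day), 4 days after removal of an eye at P100; 4 mice are named in the labels' protocol, and the series describes its samples as pooled. The deprived group, 3 arrays, is cortex contralateral to the removed eye, and the non-deprived group, 3 arrays, is cortex ipsilateral to it, so both groups come from operated mice and no unoperated mouse was among the samples. How many mice made up each pool is not stated, and the labels do not say whether a group's 3 arrays stem from different mice. The p-values therefore rest on array-to-array spread, part or all of which may be technical.

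In the brain, endothelial cells form the blood-brain barrier: they are sealed to each other by tight and adherens junctions and carry glucose to neurons through a dedicated transporter. Vascular endothelial growth factors act through the receptors Kdr (VEGFR2) and Flt1 (VEGFR1), and angiopoietins act through Tek (Tie2), with Tie1 as its partner receptor. Smooth muscle cells around arteries and arterioles contract to set vessel width, and their contractile proteins include the products of Acta2 and Tagln. Local blood flow in cortex follows neuronal activity.

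Values are MAS5 signals, an arbitrary brightness unit that summarises each probe set, and they are not compared between genes. Where signals of several genes are summed per array, the sum weights each gene by its brightness and need not follow most of its genes. Every log2 change below is deprived minus non-deprived on log2(signal + 16), where the added 16 in general pulls changes of dim probe sets toward 0. limma tested the 7453 probe sets with a mean signal of at least 134.7, and adjusted p under 0.05 was the threshold. Of the 10 genes, 6 passed this filter on their brightest probe set (Cldn5, Pecam1, Kdr, Flt1, Slc2a1 and Tagln). The other 4 (Tek, Cdh5, Tie1 and Acta2) lay below it and are given as values. No detection call was used for any of the 10 genes, so passing the filter does not place a signal above background. Tested genes were dim on single arrays as well, with Kdr at 40.3 on deprived replicate 1 and Pecam1 at 78.0 on deprived replicate 2. The gene just inside the filter was Kdr, at a mean of 157.4, and the gene just outside Acta2, at 127.2. Thus 4 of the 7 endothelial identity genes and 1 of the 2 smooth muscle genes gave a testable signal in this tissue, in which vessels are a small part. Array medians ran from 202.8 to 219.7. Because the tissue is a mixture, fewer vessel cells and less RNA per vessel cell cannot be told apart.

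None of the 6 tested genes passed the threshold, against 0.174% of all probe sets tested (limma; 0 of the 6 also had an unadjusted p under 0.05). The mean log2 signals were lower in deprived cortex for 4 of the 6 and higher for 2, where 47.8% of all probe sets tested had a lower deprived mean log2 signal. The median log2 change of the 6 was -0.22, beside 0.01 over all probe sets tested. The arrays of the groups did not overlap for 1 of the 6, Cldn5, where 10.1% of all probe sets tested did not overlap. For scale, Fos, an immediate-early gene of active neurons, had a log2 change of -2.05 (SE 0.12) in the same fit.

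**Figure D1:**
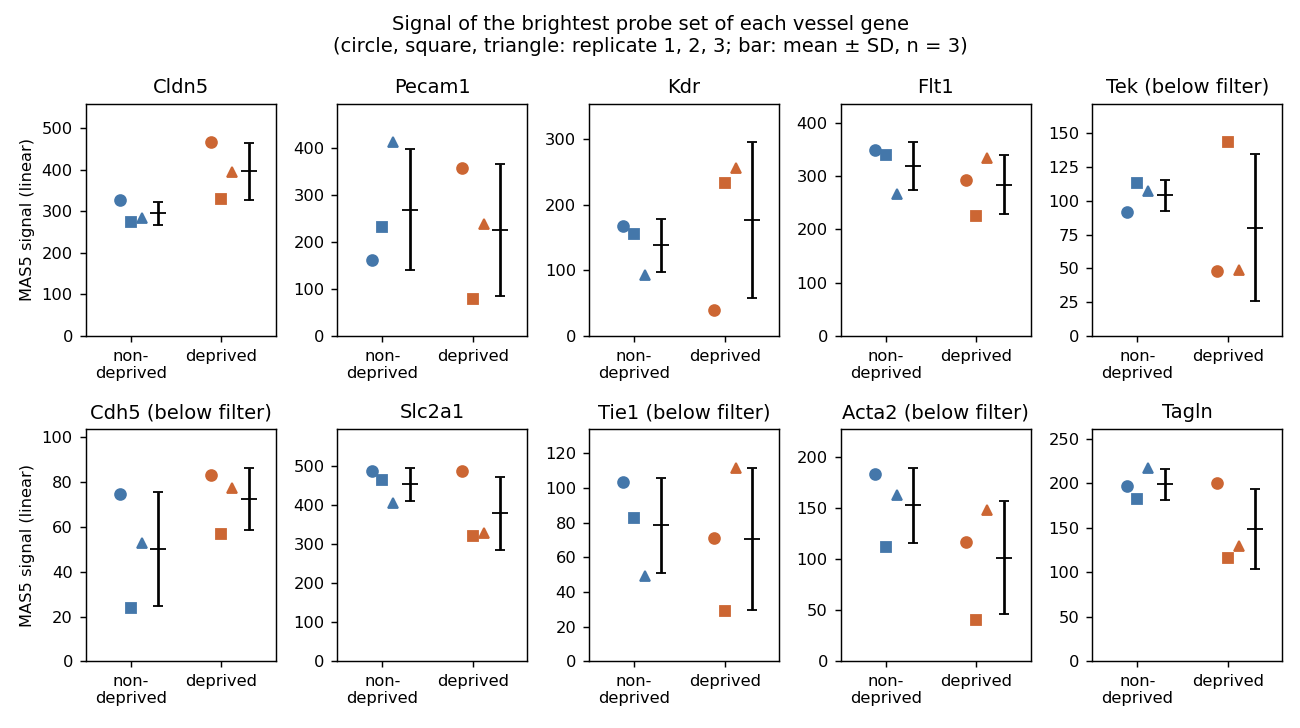
MAS5 signal (linear scale) of the brightest probe set of each of the 10 genes in the 3 non-deprived (blue) and 3 deprived (orange) arrays; circles, squares and triangles are replicates 1, 2 and 3, and bars are mean ± SD. The groups are separate for Cldn5 and overlap for the other 9 genes.

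Of the junction and adhesion genes, Cldn5 encodes claudin-5, the main tight junction protein of the blood-brain barrier. Its signals were 326.3, 274.0 and 283.5 in non-deprived replicates 1, 2 and 3, and 465.6, 329.5 and 393.8 in deprived replicates 1, 2 and 3. The lowest deprived array lay just above the highest non-deprived array. The means were 294.6 ± 27.9 and 396.3 ± 68.1 (SD, n = 3), a ratio of 1.35. The log2 change was 0.40 (SE 0.19, 95% interval -0.02 to 0.81) and did not pass (limma adjusted p = 0.95). The interval thus runs from 0.989-fold to 1.76-fold of the non-deprived level. The change kept its sign without any single array, between 0.28 and 0.52.

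Pecam1 encodes CD31, an adhesion molecule at endothelial cell contacts. Its signals were 161.7, 232.3 and 411.9 in the non-deprived arrays and 358.3, 78.0 and 239.2 in the deprived arrays. Each group held both a high and a low array, and the range of the deprived arrays covered much of the other group's. The log2 change was -0.36 (SE 0.49, 95% interval -1.46 to 0.75), with limma adjusted p = 0.97. It was 0.22 without deprived replicate 2, the lowest array, and -0.78 without deprived replicate 1. Pecam1 varied more within groups than 96.6% of the 2325 tested probe sets within 1.5-fold of its brightness.

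Cdh5 encodes VE-cadherin, the adherens junction protein of endothelium, and lay below the filter. It read 74.4, 23.6 and 52.7 in non-deprived and 83.3, 56.7 and 77.1 in deprived arrays, and the groups overlapped. Its log2 change was 0.48 (SE 0.39), with 0.15 without non-deprived replicate 2 and 0.75 without non-deprived replicate 1.

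Of the growth factor receptors, Kdr, the main signalling receptor for VEGF-A in endothelium, read 168.0, 154.7 and 92.5 in the non-deprived arrays. In the deprived arrays it read 40.3, 233.1 and 255.9. The lowest and the highest arrays were thus both deprived, and the group means, 138.4 ± 40.3 and 176.4 ± 118.4 (SD, n = 3), differed by less than the deprived SD. The log2 change was 0.05 (SE 0.58, limma adjusted p = 0.997), with a 95% interval of -1.24 to 1.35, which is 0.424-fold to 2.54-fold. It turned negative without deprived replicate 2 (-0.28), without deprived replicate 3 (-0.35) and without non-deprived replicate 3 (-0.18). For Kdr, whose deprived arrays were far apart, a pseudocount of 1 gave 0.0046 and one of 64 gave 0.11. Within groups Kdr varied more than 97.0% of the 1527 tested probe sets of like brightness.

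Flt1 encodes a VEGF receptor that binds the ligand tightly but signals weakly, and also occurs as a soluble decoy. Its brighter probe set read 348.0, 339.7 and 266.5 in non-deprived and 292.4, 225.5 and 333.8 in deprived arrays. Deprived replicate 2 was the lowest of the 6, and the groups overlapped. The log2 change was -0.16 (SE 0.21, 95% interval -0.63 to 0.31, limma adjusted p = 0.97), so that the interval ran from 0.645-fold to 1.24-fold. It was -0.02 without deprived replicate 2 and -0.28 without deprived replicate 3. The dimmer probe set, which lay below the filter, read 62.9 to 90.0 in non-deprived and 57.9 to 90.8 in deprived arrays (log2 change 0.09, SE 0.34).

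Tek and Tie1, the paired receptors of the angiopoietin system, both lay below the filter. Tek read 91.4, 113.2 and 107.5 in non-deprived arrays and 48.4, 143.1 and 48.9 in deprived arrays. Deprived replicate 2 was the highest array and the other 2 deprived arrays the lowest. The log2 change of Tek was -0.46 (SE 0.42), and it was -0.24 without deprived replicate 1 or 3 and -0.89 without deprived replicate 2. Tie1 read 103.5, 82.6 and 49.2 against 71.3, 29.1 and 111.2 on its brighter probe set, with both extremes in the deprived group. Its log2 change was -0.21 (SE 0.46), with 0.20 without deprived replicate 2 and -0.55 without deprived replicate 3. A second, _f probe set of Tie1, a design that can share probes with related transcripts, read 29.7 to 76.6 and 40.5 to 69.1 (log2 change 0.00, SE 0.38).

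Slc2a1 encodes GLUT1, the glucose transporter of the blood-brain barrier, which astrocytes also make. Its signals were 487.8, 465.2 and 405.1 in non-deprived and 486.8, 320.6 and 329.3 in deprived arrays. Deprived replicates 2 and 3 lay below every non-deprived array, and deprived replicate 1 among them. The means were 452.7 ± 42.7 and 378.9 ± 93.5 (SD, n = 3). The log2 change was -0.27 (SE 0.19, 95% interval -0.70 to 0.16, limma adjusted p = 0.97), an interval of 0.616-fold to 1.12-fold. Without deprived replicate 1 it was -0.46 and without deprived replicate 2 it was -0.17; it was -0.18 without deprived replicate 3.

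Of the smooth muscle genes, Tagln encodes transgelin (SM22), an actin-binding protein. It read 197.0, 182.2 and 217.2 in the non-deprived arrays and 199.6, 116.0 and 129.8 in the deprived arrays. As for Slc2a1, deprived replicates 2 and 3 lay below all non-deprived arrays and deprived replicate 1 did not. The means were 198.8 ± 17.6 and 148.5 ± 44.8 (SD, n = 3). The log2 change was -0.42 (SE 0.29, 95% interval -1.06 to 0.23, limma adjusted p = 0.97). It ranged from -0.63 without deprived replicate 1 to -0.27 without deprived replicate 2.

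Acta2, smooth muscle α-actin, lay just below the filter. It read 183.3, 112.0 and 163.4 against 116.5, 40.4 and 147.9, with deprived replicate 2 the lowest array. Its log2 change was -0.63 (SE 0.44, 95% interval -1.63 to 0.37). It was -0.17 without deprived replicate 2 and -0.94 without deprived replicate 3.

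**Figure D2:**
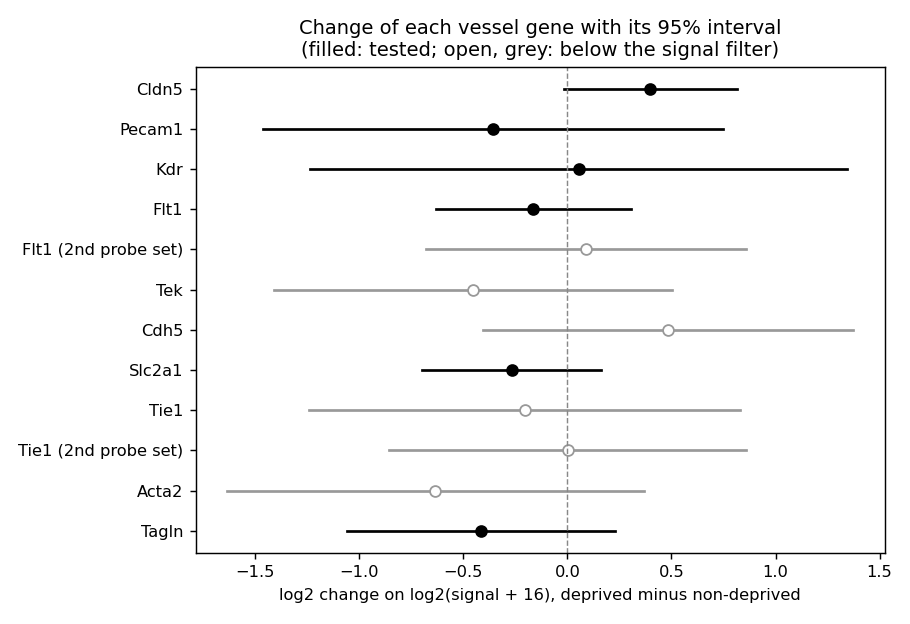
Log2 change on log2(signal + 16), deprived minus non-deprived, of all 12 probe sets with 95% intervals; filled black points passed the signal filter and open grey points did not. Every interval includes 0, and those of Pecam1 and Kdr are the widest among the 6 tested genes.

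Deprived replicate 2 had the lowest summed signal of the 10 genes, 1572 against 1980 to 2163 on the other 5 arrays. On it 8 of the 10 genes lay below their group's mean, all except Kdr and Tek. Deviations within a group sum to 0, so the other deprived arrays mirror this: 8 genes lay above the mean on deprived replicate 1 and 7 on deprived replicate 3. On deprived replicate 2 the summed signal of 6 neuronal markers was 42514, against 37647 to 40632 on the others. That of 6 hippocampal markers, 3 of them bright enough for the filter, was 2451 against 1466 to 1953. Deprived replicate 2 was also the highest array for 7 oligodendrocyte markers (12847 against 11332 to 12359). The same held for 8 microglia markers, 6 of them bright enough for the filter (6968 against 6028 to 6921). It was not the highest for markers of astrocytes (15208, where non-deprived arrays reached 16143), red blood cells, meninges and choroid plexus, perivascular macrophages or thalamus. The part of any of these in the vessel values was not tested. Without this array, 0 of the tested genes passed the threshold and the median log2 change was -0.17. Deviations from the group means correlated across the 6 arrays with a median Pearson r of 0.39 over the 15 pairs of tested genes. Over all pairs of tested probe sets it was -0.0011, and without deprived replicate 2 the median of the tested genes was -0.05. Single pairs ran from -0.96 (Kdr with Tagln) to 0.82 (Cldn5 with Slc2a1). Of the 15 pairs 11 were above 0, and every pair below 0 held Kdr. These values share the same few arrays and their scaling, and are a description.

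**Figure D3:**
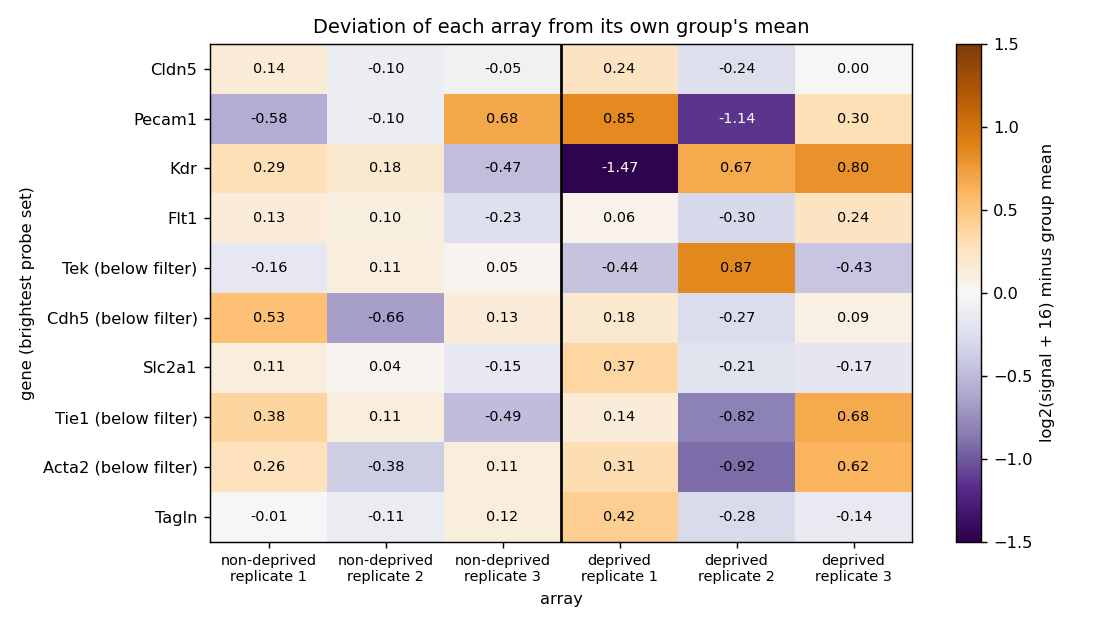
Deviation of each array's log2(signal + 16) from the mean of its own group, for the brightest probe set of each of the 10 genes (rows) in the 6 arrays (columns); orange is above the group mean and purple below. Deprived replicate 2 is below the mean for 8 of 10 genes, and deprived replicate 1 is above it for 8. Kdr ranges from -1.47 to 0.80 among the deprived arrays.

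The summed signals of markers of other cell types overlapped between the groups. For red blood cells (4 markers, 3 of them bright enough for the filter) they were 4786 to 6348 in non-deprived and 4307 to 6006 in deprived arrays. For meninges and choroid plexus (12 markers, 7 of them bright enough) they were 23290 to 30138 and 27719 to 29590. For astrocytes, which also express Slc2a1, the sums of 7 markers were 15036 to 16143 and 13693 to 15208, while 3 of these markers were lower and 4 higher in deprived arrays. For perivascular macrophages (5 markers, 2 of them bright enough for the filter) they were 410 to 519 and 482 to 659. All 6 neuronal markers were bright enough for the filter, as were all 7 astrocyte markers and 5 of 6 thalamic markers. Passing the filter therefore does not check the labelled region.

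Promoters of 7 of the 10 genes were in the RefSeq table used here (build GRCm38.p6; Pecam1, Cdh5 and Tagln had no entry). The 250 bases before the annotated start were searched on both strands for TGACGTCA, the cAMP response element found at many activity-regulated genes, for AGGAAG, a form of the ETS motif common at endothelial genes, for ACGTG, the core of the hypoxia response element, and for the CArG box of smooth muscle and immediate-early genes, both strict (6 central bases all A or T) and with 1 of those 6 bases a G or C. The elements, and the looser CArG form, were chosen with these sequences in view. The Flt1 promoter held TGACGTCA at bases 81 to 74 before the start, as did 1.55% of the 32851 promoters in the table, and AGGAAG at bases 129 to 124 and 53 to 48, with no overlap between the matches. AGGAAG was in 2 of the 7 (Flt1 and Tie1), as in 29.5% of all promoters, and ACGTG was in 1 of the 7 (Slc2a1, bases 36 to 32), as in 16.6%. A strict CArG box was in 0 of the 7 and in 1.47% of all promoters. The looser form was in 2 of the 7 and in 7.24% of all promoters: Acta2 held it at bases 84 to 75 and 34 to 25, and Kdr at bases 236 to 227. The Flt1 and Slc2a1 stretches are shown because they hold an activity-linked and a hypoxia-linked element in genes whose signals are given above, the Acta2 stretch because it holds 2 smooth muscle elements, and the Cldn5 stretch because its groups did not overlap. Capitals mark TGACGTCA and AGGAAG in Flt1, ACGTG in Slc2a1 and the looser CArG boxes in Acta2; Cldn5 had no match. The stretches are chr5:147726012-147726261 (minus strand), chr4:119108495-119108744 (plus strand), chr19:34255374-34255623 (minus strand) and chr16:18776597-18776846 (plus strand), each upstream of the gene and read 5′ to 3′. A match is a description of letters, not a site shown to be used.
Flt1: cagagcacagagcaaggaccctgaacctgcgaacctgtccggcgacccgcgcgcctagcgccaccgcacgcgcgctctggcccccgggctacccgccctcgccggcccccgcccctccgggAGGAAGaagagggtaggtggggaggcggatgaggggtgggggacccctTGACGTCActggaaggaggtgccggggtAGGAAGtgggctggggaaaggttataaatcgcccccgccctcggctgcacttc
Slc2a1: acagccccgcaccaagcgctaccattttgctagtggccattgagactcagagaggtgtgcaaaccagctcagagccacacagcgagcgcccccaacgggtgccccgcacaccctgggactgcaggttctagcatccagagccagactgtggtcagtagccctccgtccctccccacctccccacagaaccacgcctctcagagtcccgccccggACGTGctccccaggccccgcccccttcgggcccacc
Acta2: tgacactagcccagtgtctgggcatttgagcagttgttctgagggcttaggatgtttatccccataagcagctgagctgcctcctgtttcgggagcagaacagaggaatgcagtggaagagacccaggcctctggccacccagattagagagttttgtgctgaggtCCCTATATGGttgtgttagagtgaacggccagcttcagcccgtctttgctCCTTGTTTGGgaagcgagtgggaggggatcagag
Cldn5: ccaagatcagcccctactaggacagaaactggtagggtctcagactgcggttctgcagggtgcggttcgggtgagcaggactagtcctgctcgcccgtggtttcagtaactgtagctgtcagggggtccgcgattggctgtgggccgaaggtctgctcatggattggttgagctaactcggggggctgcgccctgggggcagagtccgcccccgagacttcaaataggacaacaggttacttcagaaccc

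The wider vessel pathways were described with 7 gene lists. Because the tissue is a mixture, the signal of a list gene need not come from vessels, and the counts and medians below describe the genes in cortex as a whole. Of 85 genes tested on them, each counted once, 38 had a lower and 47 a higher mean log2 signal in deprived arrays (all such counts follow the log2 change), and none passed the threshold, against 0.174% of all probe sets (limma; 3 had an unadjusted p under 0.05, where 5.09% of all probe sets did). The groups did not overlap for 12 of the 85, beside 10.1% of all probe sets. The list medians lay between -0.09 and 0.09.

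Of 13 tested genes of VEGF, angiopoietin, Notch and TGF-β signalling, 6 were lower and 7 higher, with a median of 0.01. Efnb2, the ephrin ligand of arterial endothelium, read 696.2, 543.6 and 642.2 in non-deprived and 876.5, 719.2 and 1133 in deprived arrays. The groups did not overlap, and its log2 change of 0.51 (SE 0.18) did not pass (limma adjusted p = 0.95). Pdgfb, the growth factor with which endothelium recruits pericytes, read 259.4, 268.7 and 229.3 against 171.0, 186.7 and 199.8. These groups did not overlap either (log2 change -0.41, SE 0.22, limma adjusted p = 0.97). Vegfa, the ligand of Kdr and Flt1, lay below the filter and is named for that role, outside the naming rule. It read 56.4, 58.8 and 121.6 against 99.9, 203.9 and 150.4, with overlapping groups (log2 change 0.84, SE 0.40).

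Of 11 endothelial transcription factors, 6 were lower and 5 higher, with a median of -0.04. Ets1 had a log2 change of 0.59 (SE 0.33; -0.44, SE 0.55, on a dim probe set) and Lmo2 of -0.38 (SE 0.27; -0.06, SE 0.40, on its other probe set). Of 8 endothelial surface, adhesion and vasomotor genes, 6 were lower and 2 higher, with a median of -0.03. Cav1, the coat protein of caveolae, had -0.26 (SE 0.27; 0.05, SE 0.39, on its other probe set), and Ece1, which makes active endothelin, had -0.13 (SE 0.14). The values of probe sets for the same gene thus differed in sign for Ets1 and Cav1. Leaving out 1 array moved Ets1 between 0.34 (without deprived replicate 2) and 0.80, and Lmo2 between -0.61 (without deprived replicate 1) and -0.11 (without deprived replicate 3). It moved Cav1 between -0.39 and -0.12 (without non-deprived replicate 1), and Ece1 between -0.22 (without non-deprived replicate 1) and -0.01 (without non-deprived replicate 3).

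Of 12 blood-brain barrier transport and junction genes, 5 were lower and 7 higher, with a median of 0.07. Lef1, a transcription factor of Wnt signalling that is also abundant in thalamus, had a log2 change of -0.43 (SE 0.21; -0.35, SE 0.33, on a dim probe set). Summed signals of 6 thalamic markers were 3069 to 3877 in non-deprived and 2860 to 3306 in deprived arrays. Lef1 itself is 1 of the 6, with means of 1186 in non-deprived and 881 in deprived arrays. The sum therefore cannot show what part thalamic tissue has in the Lef1 value, and this was not tested. Slc3a2, the heavy chain of large amino acid transporters, had -0.19 (SE 0.10). Without non-deprived replicate 3 the value was -0.26 for Lef1 and -0.11 for Slc3a2. For Lef1 it was -0.25 without deprived replicate 1 and -0.62 without deprived replicate 2, and for Slc3a2 it was -0.28 without non-deprived replicate 2.

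Of 12 pericyte and smooth muscle genes, 3 were lower and 9 higher, with a median of 0.09, beside -0.42 for Tagln. Vcl (vinculin, which links actin to adhesion sites) had a log2 change of 0.35 (SE 0.18) with non-overlapping groups, and -0.23 (SE 0.61) on a dim probe set. Vim, an intermediate filament of vessel walls and astrocytes, had 0.59 (SE 0.32), and 0.34 without non-deprived replicate 1. Of 17 basement membrane and matrix genes, 5 were lower and 12 higher, with a median of 0.07. Lamc1, the laminin γ1 chain, had 0.48 (SE 0.19) on an _f probe set and -0.43 (SE 0.46) on a dim one. Itgb1, the integrin β1 chain, had 0.39 (SE 0.19) on an _f and -0.37 (SE 0.16) on an _r probe set; the first was 0.21 without non-deprived replicate 2 and 0.60 without non-deprived replicate 1. For both genes the probe sets differed in sign.

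Of 12 hypoxia response genes, 7 were lower and 5 higher, with a median of -0.09, and the groups did not overlap for 5 of the 12, where 10.1% of all probe sets tested did not overlap. Those 5, named after their values were seen, were Ddit4 and Slc2a3 (higher in deprived cortex) and Egln1, Pgk1 and Pfkfb3 (lower). In the other lists the count was 3 of 13 for VEGF, angiopoietin, Notch and TGF-β signalling and 2 of 12 for pericyte and smooth muscle genes. It was 2 of 17 for basement membrane and matrix genes and 0 in each remaining list. Slc2a3 encodes GLUT3, the glucose transporter of neurons, and had a log2 change of 0.14 (SE 0.11), beside -0.27 for Slc2a1. Ddit4, a stress-induced inhibitor of mTOR signalling, read 452.9, 385.3 and 313.2 in non-deprived and 542.7, 656.5 and 671.5 in deprived arrays. Its log2 change of 0.69 (SE 0.17) did not pass (limma adjusted p = 0.50). Ldha, lactate dehydrogenase A, had -0.22 (SE 0.10) with overlapping groups.

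**Figure D4:**
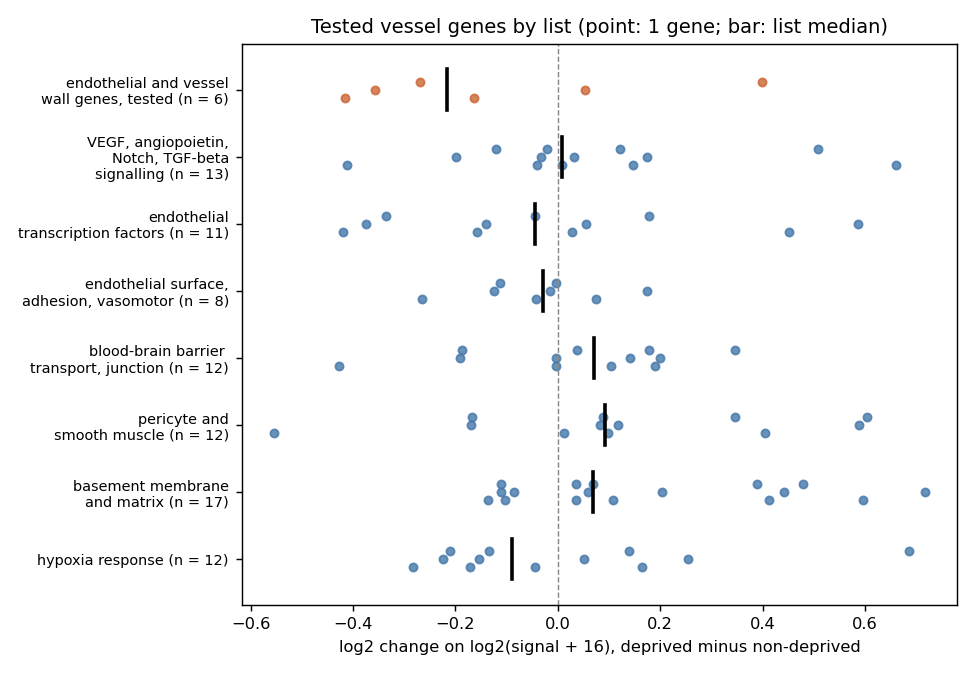
Log2 change on log2(signal + 16), deprived minus non-deprived, of every tested gene in the 7 gene lists (blue points) and of the 6 tested endothelial and vessel wall genes (orange points). Black bars are medians. The signal of a list gene need not come from vessels. The list medians lie between -0.09 and 0.09, and that of the 6 genes at -0.22.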

How the data were processed

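The authors deposited 1 table of MAS5 signal intensity (linear scale) for 12488 probe sets on 6 arrays; the submitters' processing notes name MAS5, and its version and detection calls are not given in the sources used here. The deposited intensity columns share a 2% trimmed mean of 500.3, so they were used without further scaling, which hides any change in total mRNA. The 66 control probe sets were left out, and the top 60% by mean signal over all 6 arrays (7453) were tested on log2(signal + 16) with limma 3.58.1 in R 4.3.3 (group only, eBayes with an intensity trend, two-sided, Benjamini-Hochberg over all of them). Values of genes below the filter come from the same fit with no filter. The fit was tested on simulated data. A gene is given by its brightest probe set, with its others named.

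Names came from the platform annotation (10855 probe sets with 1 symbol, 396 with several, 1237 unnamed here; 10839 matched to RefSeq by Entrez ID). The 10 genes and the 7 lists were chosen with earlier results of these data known. Of each list the 2 genes with the smallest p are named. Same-numbered arrays were not taken as pairs, since the labels do not say that they are. Their deviations correlated at 0.0030, 0.05 and -0.02, beside -0.10 to 0.10 for arrays of unlike number. Such correlations cannot decide whether the arrays are paired. Alternatives were quantile normalization, a common median, pseudocounts of 1 and 64, no filter, the top 40%, the replicate number as a block, each array left out, eBayes without trend, a threshold of 0.10 and averaging of a gene's probe sets.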

Additional observations from a re-analysis of the deposited data

How the results depend on the processing

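In each of 16 alternatives run, 0 of the tested genes passed the threshold. Averaging of a gene's probe sets could not alter this, since no tested gene had a further probe set past the filter. The list genes, run in 14 of the alternatives after the data were seen, gave 0 as well. The number of all probe sets past the threshold, 13, was 7 to 10 without 1 array (7 when non-deprived replicate 2 was left out, 8 when deprived or non-deprived replicate 3 was) and 9 to 14 otherwise. With the replicate number as a block it was 10, and the block changed no call of the 10 genes. The median log2 change of the tested genes stayed at -0.22. This was fixed in advance, because each replicate number occurs in both groups and a block then alters the spread only. That median was -0.32 to -0.16 without 1 array and 0.066 with the top 40% of mean signal, where only 2 of the genes were tested and 1 had a lower deprived mean log2 signal. With no filter, 7 of the 10 genes had a lower deprived mean log2 signal, and without 1 array 4 to 5 of those tested. Signs turned only when an array was left out: the log2 change ran from -0.78 to 0.22 for Pecam1, -0.35 to 0.79 for Kdr and -0.55 to 0.20 for Tie1, where Pecam1 and Tie1 turned only without deprived replicate 2. The other 7 of the 10 kept their sign in every alternative run. Only the normalizations, the pseudocounts and the leaving out of arrays could alter a log2 change of these genes. The median correlation of deviations, also run after the data were seen, ran from -0.05 to 0.62 without 1 array and was 0.82, from a single pair, with the top 40%. No detection call or scanner signal was used, so how far any of the 10 genes, above all the 4 dim ones, lie above background is unknown. The 3 arrays a group limit the precision.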
